A study of Mus musculus with 3 samples.

Results

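The genes described here are 37 protein-coding mouse genes of the early secretory pathway, chosen by name and found among the 56748 genes of the deposited count table. They encode the Sec61 translocon and its helpers, the TRAP complex, the COPII and COPI coats with their small GTPases, p24 proteins, KDEL receptors, and proteins that load cargo at the endoplasmic reticulum (ER). RNA was measured in 3 libraries of fibroblasts from visceral adipose tissue, 1 library per condition. All 3 shared the WT genotype and the source, the stromal vascular fraction of mice on a high-fat diet (HFD), from which cells negative for CD45, CD31 and Ter119 were taken by magnetic sorting. The vehicle library is labelled Control, with no time given. The Osm library came from cells given recombinant mouse oncostatin M at 3 ng/mL for 24 h, and the TGF-beta1 library from cells given recombinant human TGF-beta1 at 3 ng/mL for 24 h. The labels do not say how many animals were pooled or whether the cultures were separate.

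Secretory and membrane proteins enter the ER through the Sec61 channel while they are being made, and the TRAP complex sits beside the channel. COPII coats form on the ER when the GTPase Sar1 recruits the Sec23 and Sec24 cargo layer and the Sec13 and Sec31 outer cage, and they bud carriers toward the Golgi. COPI coats, built from the coatomer complex, carry receptors and escaped ER proteins back. Fibroblasts use this route to export collagen, which is bulky and needs the collagen chaperone Hsp47 (gene Serpinh1) and the ER exit site protein Tango1 (gene Mia3).

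Count totals were 18336068 for vehicle, 17319872 for Osm and 18533741 for TGF-beta1, and 13712 genes with at least 1 CPM (read count scaled to library size) in at least 1 library were compared. All 37 secretory genes passed that filter and lay above 50 CPM in every library, with 901 to 43070 counts each. The 7 fibroblast markers examined, among them Col1a1, Pdgfra and Lum, all lay between 178.5 and 7992 CPM and summed to 19635 CPM in vehicle, 19857 in Osm and 22349 in TGF-beta1. They did not move together, as Col1a1 stood at 4300.0, 4033 and 7992 CPM in that order, Dcn at 1991, 1761 and 819 CPM, Pdgfra at 1133, 1125 and 693 CPM and Lum at 287, 220.2 and 178.5 CPM. Of the 6 leukocyte markers, Cd68 was the most abundant, and the summed level was 10.1 CPM in vehicle, 7.51 in Osm and 4.53 in TGF-beta1. Ptprc, which encodes CD45, was at 0 counts in vehicle and TGF-beta1. The 6 endothelial markers summed to 56.8, 45.7 and 37.6 CPM in the same order, mostly from Tek (48.6, 39.0 and 34.2 CPM). All 5 erythroid markers were at 0 in every library. The 6 mesothelial markers summed to 41.4, 40.5 and 49.5 CPM, mostly from Wt1 (37.2, 36.2 and 43.1 CPM). The 5 mature adipocyte markers summed to under 1 CPM in each library. The part of these other cells in the values that follow was not tested.

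With 1 library per condition no difference has a replicate check and no p-value is given. Ratios of CPM are printed with an exact 95% interval derived from the counts, which covers counting error only, compares libraries and not conditions, and may be too narrow because the reads carry no molecular identifiers. A gene was counted as called where its ratio was at least 1.2-fold (or 2-fold, where stated) and its interval excluded a ratio of 1. In these bulk libraries fewer cells of a type and less RNA per cell cannot be told apart.

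With TGF-beta1 most of the secretory genes sat slightly above vehicle, and none was 2-fold different in either direction, against 7.09% of all tested genes and 3.34% of those with at least 50 CPM. The ratio of TGF-beta1 to vehicle was above 1 for 29 of the 37 genes (78.4%) and below it for 8. It was above 1 for 54.6% of the genes with at least 50 CPM and 49.9% of all tested genes. The median log2 ratio was 0.10, beside 0.03 for the 4430 tested genes with at least 50 CPM in a library and -0.00 for all 13712. It was 0.18 over the 20 genes that overlap no other annotated gene, and 0.09 over those sharing under 5% of 50-base transcript windows with other genes. The 37 genes summed to 10549.9 CPM in vehicle, 10482 CPM in Osm and 11696 CPM in TGF-beta1. Serpinh1 alone made up 43.9% of the summed difference of 1146 CPM between TGF-beta1 and vehicle. Without it the sums were 8729.5, 8650.1 and 9373 CPM and the median log2 ratio to vehicle remained 0.10.

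Called at least 1.2-fold higher with TGF-beta1 than with vehicle were 5 genes (13.5%), Serpinh1, Tmed9, Sec61g, Sec13 and Sec23a. The background was 17.0% of all tested genes and 18.6% of those with at least 50 CPM, so that share is no result about these genes. No secretory gene was called 1.2-fold lower, beside 18.6% of all tested genes and 17.1% of those with at least 50 CPM. At any size, the interval lay above a ratio of 1 for 25 of the 37 genes, beside 39.8% of the genes with at least 50 CPM. It lay below 1 for 3, Copz1, Tmed10 and Sec24a, beside 32.5% of the genes with at least 50 CPM. The log2 ratios ran from -0.18 to 0.35. Their 10th and 90th percentiles were -0.05 and 0.28, a narrower spread than the -0.44 and 0.39 of the genes with at least 50 CPM.

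**Figure D1:**
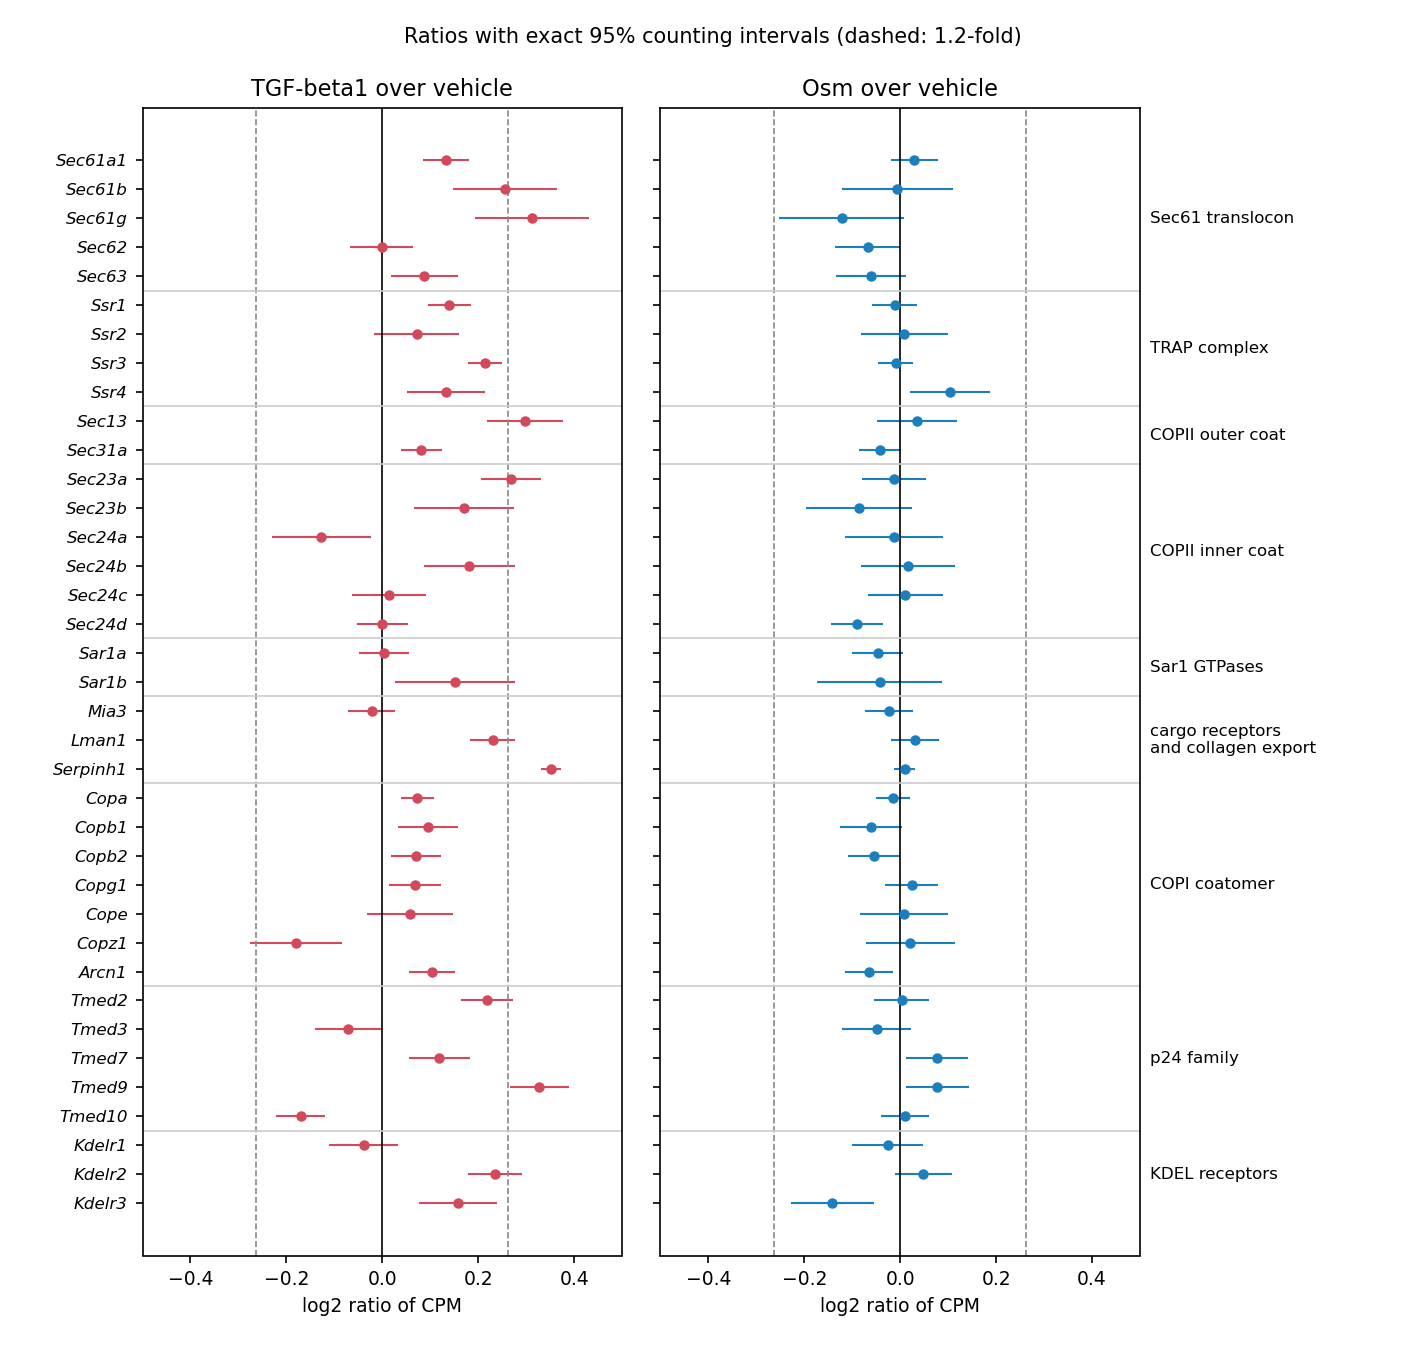
Log2 ratio of CPM for each of the 37 secretory genes, grouped by role, for TGF-beta1 over vehicle and Osm over vehicle; points are single libraries compared and bars are exact 95% counting intervals, with dashed lines at 1.2-fold. The TGF-beta1 ratios ran from -0.18 to 0.35, and the Osm ratios from -0.14 to 0.10.

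With Osm the genes stayed close to vehicle. No gene was called 1.2-fold higher or lower. The background for higher calls was 4.88% of all tested genes and 1.56% of those with at least 50 CPM, and for lower calls it was 4.74% and 1.74%. At 2-fold no secretory gene was called, beside 1.61% of all tested genes and 0.113% of those with at least 50 CPM. With backgrounds this low among genes with at least 50 CPM, the absence of calls is no result about these genes. The median log2 ratio was -0.01, with 16 genes (43.2%) above 0 and 21 below, beside 48.0% above among the genes with at least 50 CPM. The interval lay above a ratio of 1 for Ssr4, Tmed7 and Tmed9, beside 15.2% of the genes with at least 50 CPM. It lay below 1 for Kdelr3, Sec24d, Arcn1, Copb2 and Sec62, beside 16.8% of the genes with at least 50 CPM. Both treated libraries were compared with the same vehicle library, so the 2 sets of ratios are not independent.

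**Figure D2:**
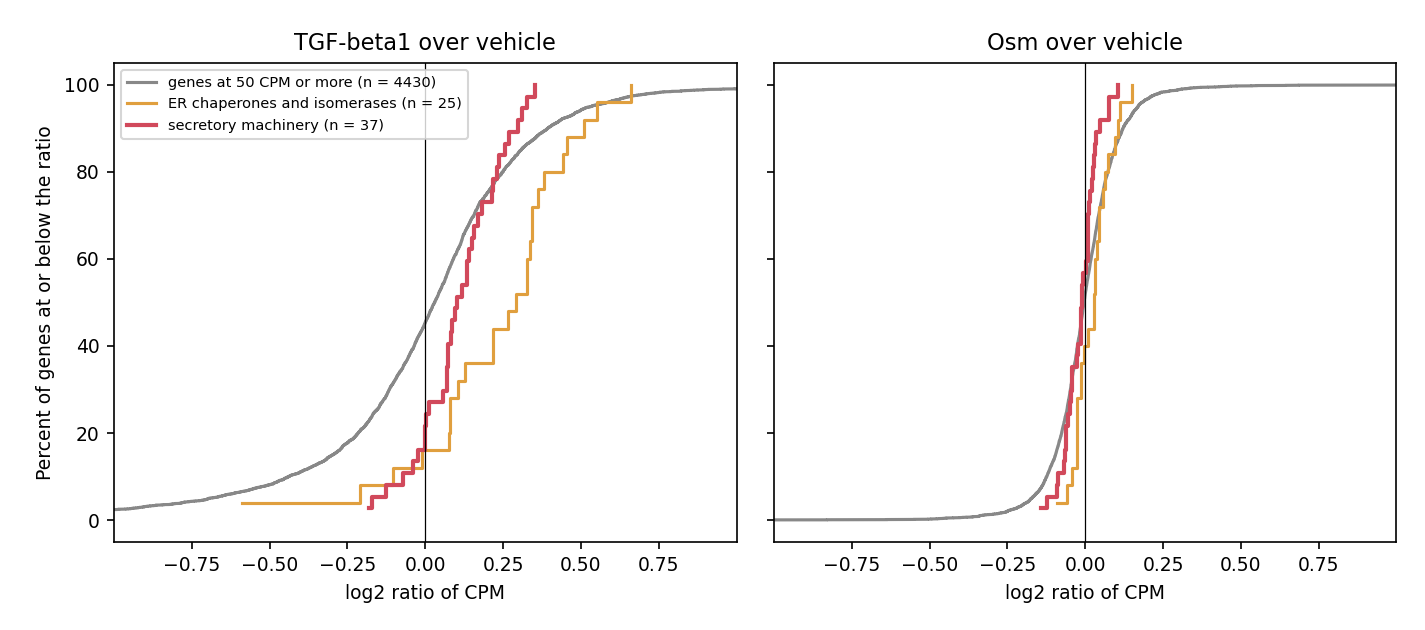
Cumulative percent of genes against the log2 ratio of CPM, for TGF-beta1 over vehicle (left) and Osm over vehicle (right); lines stand for the 37 secretory genes, the 25 ER chaperones and isomerases, and the 4430 genes with at least 50 CPM. With TGF-beta1 the median was 0.10 for the secretory genes, 0.29 for the chaperones and 0.03 for the genes with at least 50 CPM, and with Osm it was -0.01 for the secretory genes.

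Promoter sequence was available for 30 of the 37 genes in the RefSeq table for GRCm38.p6, as 32 windows from 250 bases before to 50 bases after a gene's start; Sec61a1, Ssr2, Lman1, Arcn1, Tmed2, Tmed7 and Kdelr2 had no entry. The search covered both strands and 6 motifs, chosen after the values had been seen. The ER stress element ERSE (CCAAT and CCACG with 9 free bases between), which Atf6 binds with NF-Y, was in 0 of the 32 windows and in 0.119% of all 32851 windows. Its second form ERSE-II (ATTGG and CCACG with 1 free base between) was in 0 windows and in 0.0365% of all. TGACGTGG, the core of the element bound by Xbp1 and Atf6, was in 5 of the 32 windows (15.6%) and in 0.676% of all. It was also in 3 of 19 windows (15.8%) of the further COPI genes described below, all from Arf1 and Gbf1. Of the other lists, it was in 3 of 40 windows (7.5%) of the ER exit genes and 1 of 26 (3.85%) of the chaperones. It was in 0 of 26 windows of the targeting genes, 0 of 10 of the ER stress factors and 0 of 20 of the clathrin and adaptor genes. The cAMP response element TGACGTCA, whose first letters are those of TGACGTGG, was in the window of Cope alone, beside 1.79% of all. CCAAT, which is part of ERSE and, read on the other strand, of ERSE-II, was in 12 windows (37.5%) and 37.4% of all. The heat shock element core GAANNTTC was in 5 windows (15.6%) and 7.86% of all. Each window follows 1 annotated start, and some lie in transcribed sequence: of 271 overlapping stretches of 30 bases, 271 of the Sec24a window, 270 of the Cope window that holds TGACGTCA and 195 of the Copz1 window occur in a GENCODE transcript. A match describes letters only and is no measured binding.

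The windows with TGACGTGG belonged to 2 COPII coat genes, 2 coatomer genes and a KDEL receptor gene, and the stretch around each match is shown because the same letters recur across both coats. The matches of Sec24d, Copb1, Copb2 and Sec23a lie in sequence that occurs in a GENCODE transcript, and that of Kdelr3 does not. The Sec23a match starts 6 bases after the annotated start. Each stretch is read 5′ to 3′ on the gene's strand, with the match in capitals; CCACGTCA is TGACGTGG on the other strand. They lie at chr3:123267410-123267479 (Sec24d, plus strand), chr7:114254699-114254768 (Copb1, minus), chr9:98563664-98563733 (Copb2, plus), chr12:59012002-59012071 (Sec23a, minus) and chr15:79516318-79516387 (Kdelr3, plus) of GRCm38.p6.
Sec24d: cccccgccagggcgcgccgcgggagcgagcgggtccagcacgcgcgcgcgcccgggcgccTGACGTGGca
Copb1: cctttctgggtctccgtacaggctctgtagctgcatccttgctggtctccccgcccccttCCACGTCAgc
Copb2: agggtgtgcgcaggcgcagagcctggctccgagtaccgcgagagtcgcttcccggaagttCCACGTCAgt
Sec23a: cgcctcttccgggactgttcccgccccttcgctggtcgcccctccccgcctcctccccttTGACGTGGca
Kdelr3: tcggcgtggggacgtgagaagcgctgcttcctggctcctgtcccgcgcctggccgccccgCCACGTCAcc
The median log2 ratio of TGF-beta1 to vehicle was 0.10 for these 5 genes and 0.08 for the other 25 with a window.

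The Sec61 channel genes differed in the size of their ratios. Sec61a1, the pore-forming alpha subunit, stood at 373 CPM in vehicle, 381 in Osm and 409 in TGF-beta1, 1.10-fold higher (1.06 to 1.13) with TGF-beta1 than with vehicle. Sec61b, the beta subunit, stood at 69.6, 69.3 and 83.1 CPM, 1.19-fold higher (1.11 to 1.29) with TGF-beta1 and just under the 1.2-fold limit. Sec61g, the gamma subunit (ENSMUSG00000078974, chromosome 11, 16450530 to 16458484, minus strand, mm39), stood at 56.6, 52.0 and 70.3 CPM and was 1.24-fold higher (1.14 to 1.35). The TGF-beta1 library was the highest of the 3 for each of these subunits. Of 50-base windows of their transcripts, 17.4% for Sec61b and 14.8% for Sec61g also occur in another gene's transcript, so their counts are less certain.

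The channel's helpers Sec62 and Sec63 guide proteins that enter after or alongside synthesis. Sec62 stood at 201 CPM in vehicle, 192 in Osm and 201 in TGF-beta1. Sec63, a J-domain protein that recruits the chaperone BiP, stood at 174, 167 and 185 CPM, and its ratio of TGF-beta1 to vehicle was 1.06 (1.01 to 1.12). Neither reached 1.2-fold in either comparison.

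All 4 TRAP genes were above vehicle with TGF-beta1, and none was called. Ssr1, the alpha subunit, stood at 418 CPM in vehicle, 415 in Osm and 461 in TGF-beta1, a ratio to vehicle of 1.10 (1.07 to 1.14). Ssr3, the gamma subunit, stood at 669, 664 and 776 CPM and was 1.16-fold higher (1.13 to 1.19). Ssr2, the beta subunit, stood at 109, 109.6 and 115 CPM, with an interval that spanned a ratio of 1 (0.988 to 1.12). Ssr4, the delta subunit, stood at 126, 136 and 138 CPM and was 1.10-fold higher (1.04 to 1.16) with TGF-beta1 and 1.07-fold higher (1.01 to 1.14) with Osm. Ssr4 was therefore the one TRAP gene with an interval above 1 in both treated libraries.

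**Figure D3:**
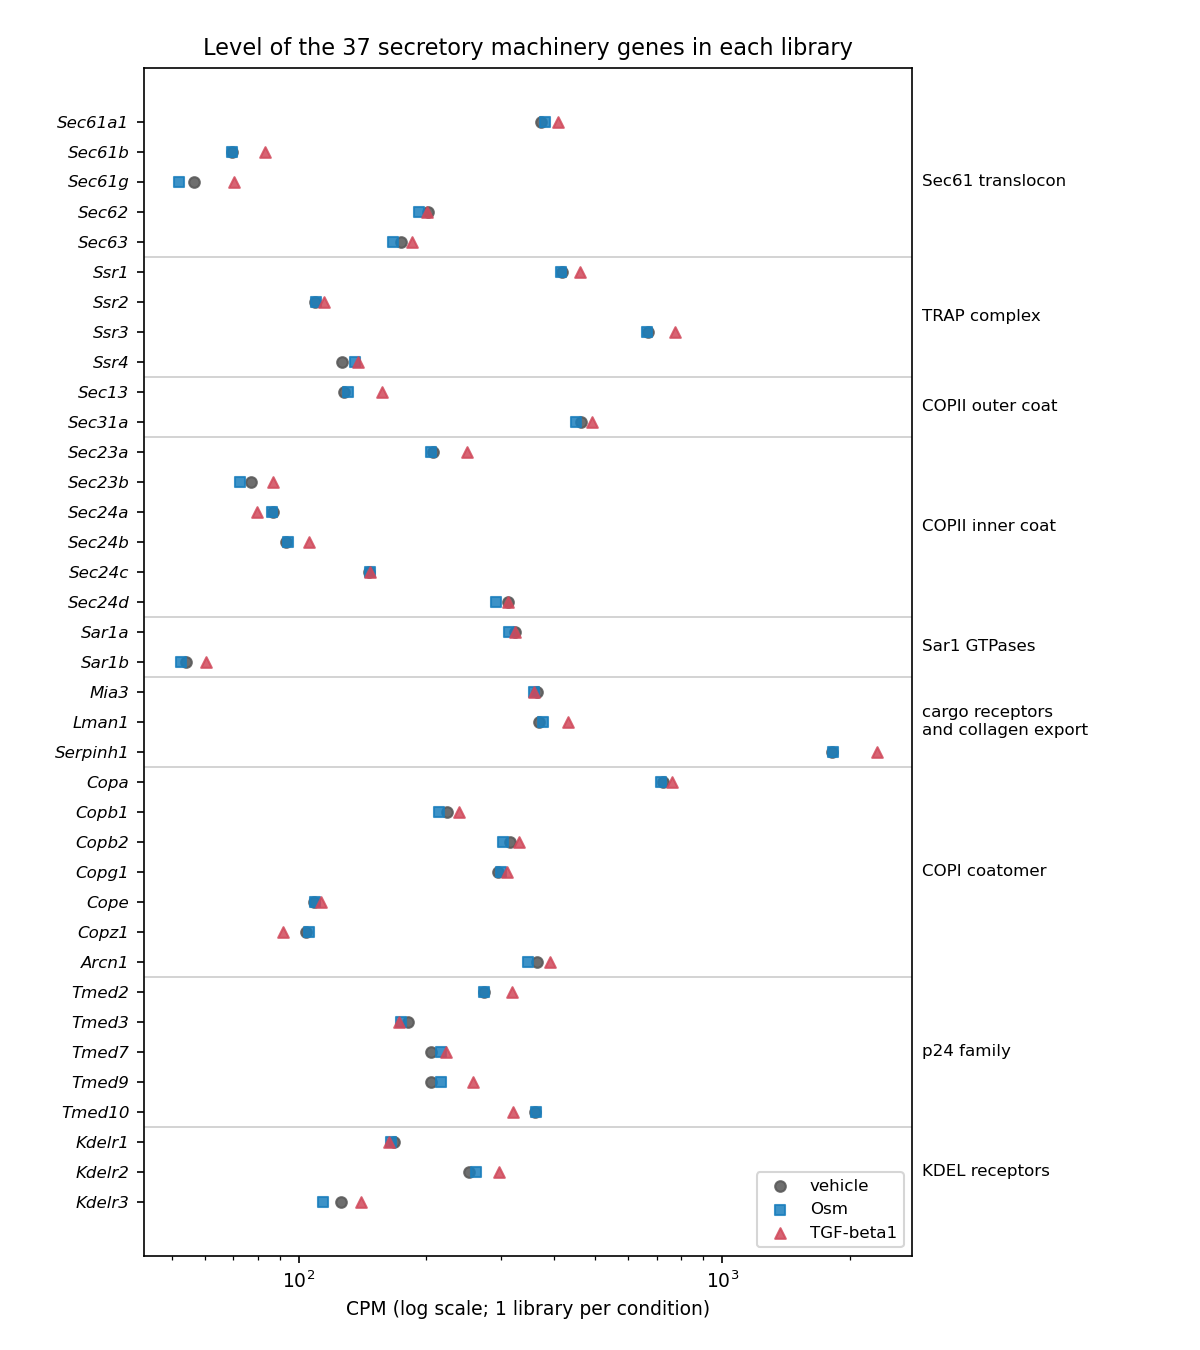
CPM of each of the 37 secretory genes in each of the 3 libraries (vehicle, Osm, TGF-beta1) on a log axis, grouped by role; each point is 1 library. The points of a gene lie close together, and Serpinh1 is the highest gene in all 3 libraries, at 1820.3, 1832 and 2323 CPM.

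In the COPII coat, Sec13 of the outer layer and Sec23a of the inner layer were among the 5 called genes. Those 5 were 13.5% of the 37, beside 17.0% of all tested genes and 18.6% of those with at least 50 CPM. Sec13, a cage subunit also found in the nuclear pore (ENSMUSG00000030298, chromosome 6, 113705023 to 113717704, minus strand, mm39), stood at 128 CPM in vehicle, 131 in Osm and 157 in TGF-beta1, 1.23-fold higher (1.16 to 1.30) with TGF-beta1. Its cage partner Sec31a stood at 464, 451 and 491 CPM, 1.06-fold higher (1.03 to 1.09). Sec23a, the inner-layer subunit that activates the GTPase of Sar1 (ENSMUSG00000020986, chromosome 12, 59005169 to 59058803, minus strand, mm39), stood at 207, 205 and 249.6 CPM and was 1.205-fold higher (1.15 to 1.26). Its paralog Sec23b stood at 77.2, 72.7 and 86.9 CPM, a ratio of 1.13 (1.05 to 1.21). All 4 of these genes were highest with TGF-beta1.

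The Sec24 cargo adaptors did not share one direction. Sec24a stood at 87.0 CPM in vehicle, 86.3 in Osm and 79.7 in TGF-beta1, 1.09-fold lower (1.02 to 1.17) with TGF-beta1. Sec24b stood at 93.0, 94.1 and 105 CPM, 1.13-fold higher (1.06 to 1.21). Sec24c, at 146, 147 and 147 CPM, lay within counting error of vehicle in both treated libraries. Sec24d, a paralog tied to collagen export in skeletal disease, stood at 311, 292 and 311 CPM, and was 1.06-fold lower (1.02 to 1.11) with Osm. Sec24a and Sec24b thus lay on opposite sides of vehicle with TGF-beta1.

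Sar1, the GTPase that starts COPII assembly, has a pair of genes. Sar1a stood at 324 CPM in vehicle, 313 in Osm and 324 in TGF-beta1, and Sar1b, the paralog needed for chylomicron export in the gut, at 54.2, 52.6 and 60.2 CPM. Sar1b was 1.11-fold higher (1.02 to 1.21) with TGF-beta1, and Sar1a lay within counting error.

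The collagen chaperone gene Serpinh1 (ENSMUSG00000070436, chromosome 7, 98994583 to 99002446, minus strand, mm39) was the most abundant of the 37 and had the highest ratio of TGF-beta1 to vehicle. It stood at 1820.3 CPM in vehicle, 1832 in Osm and 2323 in TGF-beta1, 1.28-fold higher (1.26 to 1.29) with TGF-beta1 and 1.01-fold higher (0.991 to 1.02) with Osm. Mia3, whose protein holds collagen at the exit site, stood at 365, 359 and 359.6 CPM, 1.02-fold lower (0.981 to 1.05) with TGF-beta1. The chaperone and the exit-site gene thus differed in ratio. Lman1, the lectin ERGIC-53 that carries glycoproteins such as blood coagulation factors, stood at 369, 377 and 433 CPM and was 1.17-fold higher (1.14 to 1.21).

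The 7 coatomer genes were nearly level, with 6 above and 1 below vehicle and none called. Copa, the alpha subunit of the outer coat, stood at 723 CPM in vehicle, 716 in Osm and 761 in TGF-beta1, a ratio of 1.05 (1.03 to 1.08). Copb1, the beta subunit, stood at 223, 214 and 239 CPM (1.07, interval 1.02 to 1.11). Copb2, the beta-prime subunit, stood at 315, 303 and 331 CPM (1.05, interval 1.01 to 1.09). These first subunits lay within a narrow band of ratios. Copg1, the gamma subunit, stood at 296, 301 and 310.3 CPM (1.05, interval 1.01 to 1.09). Cope, the epsilon subunit, stood at 108, 109 and 113 CPM (1.04, interval 0.978 to 1.11). Arcn1, the delta subunit, stood at 365, 348 and 392 CPM (1.07, interval 1.04 to 1.11). The exception was Copz1, the zeta subunit (ENSMUSG00000060992, chromosome 15, 103181141 to 103208295, plus strand, mm39), at 104, 106 and 91.9 CPM, 1.13-fold lower (1.06 to 1.21) with TGF-beta1.

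Copz1 and its paralog Copz2, a coatomer gene of the companion list described below, differed in direction. Copz2 stood at 65.7 CPM in vehicle, 58.0 in Osm and 81.5 in TGF-beta1, 1.24-fold higher (1.15 to 1.34) with TGF-beta1. On the per-length FPKM scale, Copz1 made up 48.9% (47.0 to 50.7) of the summed level of the pair in vehicle, 52.3% (50.4 to 54.3) in Osm and 40.5% (38.8 to 42.2) in TGF-beta1. The interval of the TGF-beta1 share overlaps neither of the others. The same was true of Sec24a in its family (7.65%, 7.26 to 8.04, with TGF-beta1) and of Kdelr1 in its family (25.0%, 24.2 to 25.8). Copz2, the rest of its pair, mirrored Copz1. No other share of these families, or of the Sec23, Sar1, Copg and Sec61a families, was apart in this way. Such shares were not computed over all genes, so no matching background can be given. By a different measure, TGF-beta1 to vehicle ratios with intervals that exclude 1 were common among genes with at least 50 CPM (39.8% above, 32.5% below). Copg1 made up 84.3%, 84.6% and 83.3% of the summed level of the gamma pair Copg1 and Copg2. Sec61a1 made up 89.5%, 88.7% and 87.3% of its pair with Sec61a2.

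The p24 proteins, type I membrane proteins that cycle between ER and Golgi and help load GPI-anchored cargo, split in direction. Tmed9 (ENSMUSG00000058569, chromosome 13, 55721545 to 55745510, plus strand, mm39) stood at 205 CPM in vehicle, 217 in Osm and 258 in TGF-beta1, 1.25-fold higher (1.202 to 1.31) with TGF-beta1 and 1.05-fold higher (1.01 to 1.10) with Osm. Tmed2 stood at 273, 274 and 318 CPM (1.16-fold higher, 1.12 to 1.21), and Tmed7 at 205, 217 and 223 CPM (1.09-fold higher, 1.04 to 1.14). Tmed3 stood at 181, 175 and 172 CPM. Tmed10 (ENSMUSG00000021248, chromosome 12, 85387388 to 85421621, minus strand, mm39) stood at 360.5, 363 and 320.3 CPM, 1.13-fold lower (1.09 to 1.17) with TGF-beta1. In Tmed2, 22.0% of windows are shared with another gene's transcript, and in Tmed10 8.0%, both with a pseudogene, so their counts could be split with near-identical copies. In Tmed7 12.1% are shared, mostly with Ticam2, a gene that overlaps it on the same strand and stood at 0 CPM in the 3 libraries.

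KDEL receptors return ER residents that carry a KDEL signal from the Golgi. Kdelr1 stood at 168 CPM in vehicle, 165 in Osm and 163 in TGF-beta1, 1.03-fold lower (0.977 to 1.08) with TGF-beta1. Kdelr2 stood at 253, 261 and 298 CPM, 1.18-fold higher (1.13 to 1.22). Kdelr3 stood at 126, 114 and 140.4 CPM, 1.12-fold higher (1.05 to 1.18) with TGF-beta1 and 1.10-fold lower (1.04 to 1.17) with Osm. Kdelr3, Arcn1 and Copb2 were the 3 genes of the 37 whose intervals lay above 1 with TGF-beta1 and below 1 with Osm. Kdelr3 overlaps Ddx17 on the opposite strand, at 450.9, 441 and 369.5 CPM, and the strandedness of the libraries is not stated, so these reads cannot be told apart. Copa likewise overlaps Ncstn, at 258, 253 and 237 CPM.

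Compared per length in the authors' deposited FPKM, the level of the 37 genes in vehicle ran from 8.12 for Sec24a to 743 for Serpinh1, with a median of 46.3. The 7 coatomer genes, whose products assemble in equal number, ranged 3.14-fold, from 24.4 FPKM for Arcn1 to 76.5 for Copa. Among the Sec24 paralogs Sec24d made up 51.3% of the summed FPKM in vehicle, 49.5% in Osm and 50.4% in TGF-beta1, and Sec24a the least, at 8.49%, 8.66% and 7.65%. Sec23a made up 77.7%, 78.6% and 78.9% of its pair. Sar1a made up 66.7%, 66.7% and 64.4% of its pair, and Kdelr2 43.6%, 45.8% and 46.6% of the 3 KDEL receptors. The order of the paralogs within each of these families was the same in the 3 libraries, except that Kdelr1 was above Kdelr3 in Osm (28.2% and 25.9%), below it in TGF-beta1 (25.0% and 28.5%) and within counting error of it in vehicle (28.3% and 28.1%).

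**Figure D4:**
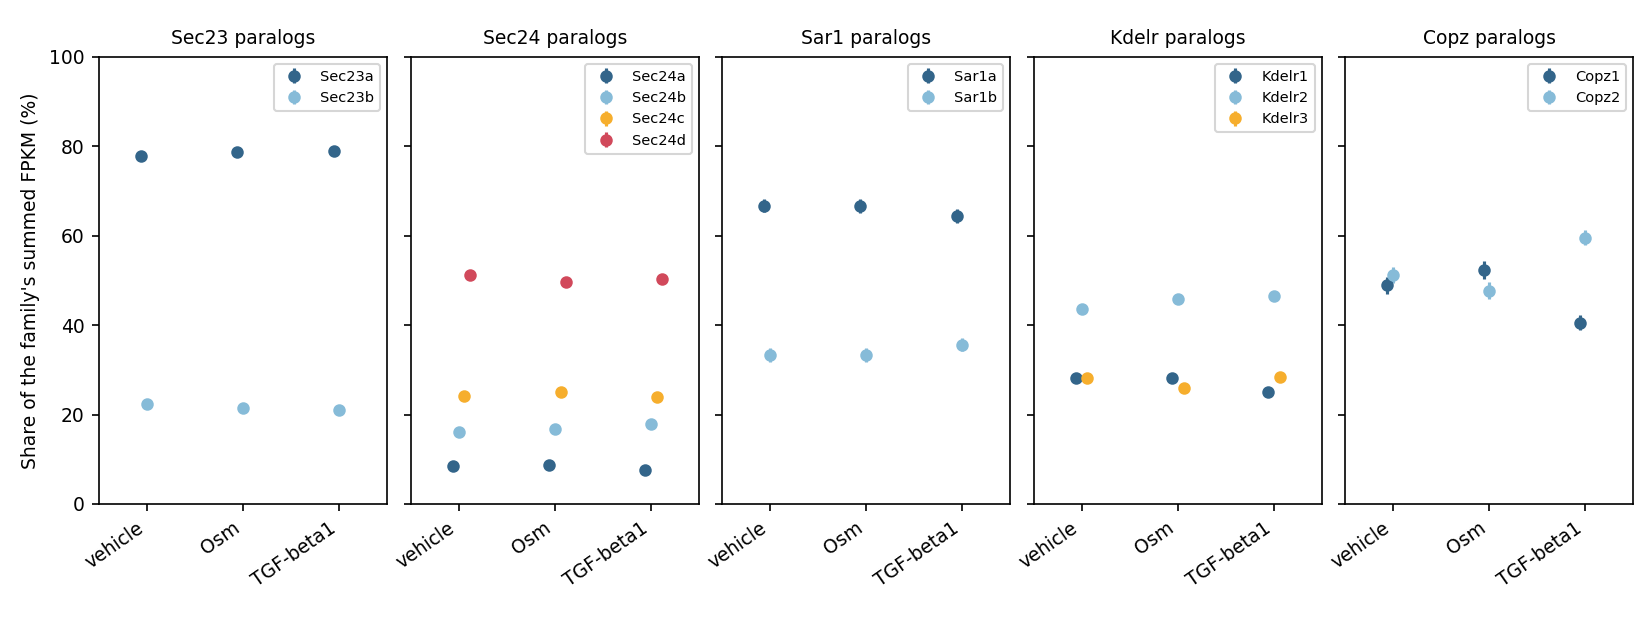
Share of each paralog in the summed FPKM of its family, for vehicle, Osm and TGF-beta1; each point is 1 library, the axis runs from 0 to 100%, and whiskers are 95% counting intervals. Copz1 held 48.9%, 52.3% and 40.5% of its pair, and Sec24d held 51.3%, 49.5% and 50.4% of the Sec24 genes.

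The TGF-beta1 and Osm libraries, compared with each other, gave 32 genes (86.5%) above and 5 below a ratio of 1, beside 54.9% above among the genes with at least 50 CPM, with a median log2 ratio of 0.13 beside 0.03 for the genes with at least 50 CPM. Called at least 1.2-fold higher were 4 genes (10.8%), Sec61g (1.35-fold, 1.24 to 1.47), Serpinh1 (1.27-fold, 1.25 to 1.29), Kdelr3 (1.23-fold, 1.16 to 1.30) and Sec23a (1.22-fold, 1.16 to 1.27). The background was 16.6% of all tested genes and 19.0% of those with at least 50 CPM, so that share reads as no more than the background. No gene was called 1.2-fold lower, beside 19.1% and 17.5%, and none was called at 2-fold, beside 7.53% of all and 3.41% of those with at least 50 CPM. The interval lay above 1 for 23 of the 37 genes, beside 39.5% of the genes with at least 50 CPM. It lay below 1 for Copz1, Tmed10 and Sec24a, beside 31.6% of the genes with at least 50 CPM. The count of 4 varied with the processing. It was 8 (21.6%) with DESeq2 size factors, beside 21.1% of the genes with at least 50 CPM under the same scaling. With FPKM it was 8 (21.6%, beside 20.9%), with no filter 7 (18.9%, beside 20.2%), and without the genes that overlap another 2.

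The other genes of the pathway were taken from 6 lists of 141 genes in all. Of those 141, 34 were called 1.2-fold higher with TGF-beta1 than with vehicle (24.1%) and 5 lower (3.55%), beside 17.0% and 18.6% of all tested genes. With Osm 1 was called higher (0.709%) and 3 lower (2.13%), beside 4.88% and 4.74% of all tested genes. Of the 141, 111 had at least 50 CPM in a library, and the background at that level was 1.56% and 1.74%. The 3 lower genes were Trappc1, Bnip1 and Srp54a, at 30.1, 11.1 and 5.24 CPM in vehicle. Of 25 ER chaperones and disulfide isomerases, 14 (56.0%) were called higher with TGF-beta1 and 1 (4.0%) lower, with a median log2 ratio of 0.29 beside 0.10 for the 37 secretory genes. Of 30 genes of targeting, signal peptide removal and glycosylation, 7 (23.3%) were called higher and 0 lower, with a median of 0.11. Of 37 genes of ER exit, tethering and fusion, 5 (13.5%) were higher and 2 (5.41%) lower, with a median of 0.04. Of 16 further COPI genes 1 (6.25%) was higher and 1 lower, with a median of 0.06, and of 21 clathrin and adaptor genes 3 (14.3%) were higher and 1 (4.76%) lower, with a median of 0.06. Of 12 transcription factors and sensors of ER stress and secretion, 4 (33.3%) were higher and 0 lower, with a median of 0.09. No test of the difference between lists was made.

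Within those lists, named by the highest and lowest ratios, Hyou1, an ER chaperone of the Hsp110 family, stood at 278 CPM in vehicle, 287 in Osm and 439.8 in TGF-beta1 (1.58-fold higher, 1.53 to 1.64). Fkbp10, an isomerase of collagen, stood at 205, 197 and 301 CPM (1.47-fold higher, 1.41 to 1.53). Sil1, the exchange factor of BiP, stood at 49.0, 48.1 and 32.5 CPM, 1.51-fold lower (1.36 to 1.67). Hyou1 and Sil1 had the highest and the lowest ratio of the genes named from the 6 lists. Srprb, the beta subunit of the signal recognition particle receptor, stood at 95.9, 91.8 and 133 CPM (1.39-fold higher, 1.30 to 1.48). Tmed5, a p24 gene outside the 37, stood at 134, 142 and 176 CPM (1.31-fold higher, 1.25 to 1.38). Ergic3, of the ER-Golgi intermediate compartment, stood at 165, 169.8 and 127 CPM, 1.30-fold lower (1.23 to 1.37). ERSE, in 0 of the 32 secretory windows, was in 8 of 26 windows (30.8%) of the chaperone genes, those of Calr, Canx, Creld2, Dnajc3, Ero1b, Hsp90b1, Hspa5 and Pdia6.

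The naming rule gave further genes from these lists. Fkbp2, an ER isomerase, stood at 23.5 CPM in vehicle, 24.0 in Osm and 20.3 in TGF-beta1. In the ER exit list, the tethering gene Trappc4 stood at 42.6, 41.8 and 55.9 CPM, 1.31-fold higher (1.19 to 1.44) with TGF-beta1. The p24 gene Tmed1 stood at 33.6, 39.4 and 27.7 CPM, 1.21-fold lower (1.08 to 1.36). These genes lay on both sides of vehicle. Of the further COPI genes, Arfgap2, which activates the GTPase activity of Arf1, stood at 61.8, 66.0 and 73.8 CPM. Use1, a SNARE for retrograde carriers, stood at 32.2, 35.4 and 25.8 CPM, 1.25-fold lower (1.11 to 1.41). Bnip1, another such SNARE, stood at 11.1, 7.74 and 9.71 CPM, with an interval for TGF-beta1 to vehicle that spanned 1 (0.713 to 1.08). Bnip1 was 1.43-fold lower (1.14 to 1.79) with Osm and one of the 3 genes of the lists called lower there.

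Among the clathrin and adaptor genes, the light chain gene Cltb stood at 59.8, 59.1 and 83.7 CPM, 1.40-fold higher (1.29 to 1.51) with TGF-beta1. The AP-2 gene Ap2m1 stood at 248, 258 and 317 CPM, 1.28-fold higher (1.23 to 1.33). The AP-3 gene Ap3s1 stood at 119.9, 116 and 88.5 CPM, 1.35-fold lower (1.27 to 1.45). The clathrin and adaptor list thus held called genes in both directions, 3 (14.3%) higher and 1 (4.76%) lower of 21. The background was 17.0% higher and 18.6% lower of all tested genes. Gga2, a Golgi adaptor, stood at 104, 111 and 89.5 CPM. In the targeting list, the signal peptidase catalytic subunits Sec11a and Sec11c differed. Sec11c stood at 15.1, 18.7 and 21.7 CPM, 1.44-fold higher (1.23 to 1.69) with TGF-beta1, and Sec11a at 83.3, 78.7 and 82.1 CPM, within counting error of vehicle. Krtcap2, of the oligosaccharyltransferase, stood at 72.5, 70.0 and 67.3 CPM.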

How the data were processed

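RNA sequencing of 3 libraries was used, 1 each from fibroblasts given vehicle, Osm or TGF-beta1, grouped by the sample titles. The authors deposited whole-number read counts per gene and FPKM values for the same genes. Per the submitters' processing notes the tools were CASAVA, HISAT2, HISAT and TopHat2 and the build mm39. Counter and annotation were not given in the sources used here. RNA with poly(A) tails was purified, per the labels' protocols, and both stranded and unstranded library types are described.

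The deposited counts were scaled with TMM factors (edgeR 4.0.16, R 4.3.3; all 1.00) to CPM over genes with at least 1 CPM in a library. Log2 ratios used a prior count of 0.5. Intervals are exact 95% Clopper-Pearson intervals of the counts. No test was run, having 1 library per condition. The deposited FPKM served for levels between genes, for paralog shares and as an alternative. For Ddit3, which has a pair of rows, the one with more counts was used, and Srpra was found as Srpr. Every member is given, and of each further list the 2 highest and 2 lowest ratios among genes with at least 10 CPM are named. The intervals of paralog shares take the counts of the gene and of the rest of its family. Shared windows of 50 bases came from GENCODE M21 transcripts and promoters from RefSeq (GRCm38.p6). The calculation was tested on simulated data that held counting error alone and no variation between cultures. Scripts ran in Python 3.11.15 with pandas 2.3.3, scipy 1.17.1, numpy 2.4.6 and, for figures, matplotlib 3.10.9. Alternative size factors came from DESeq2 1.42.0. The members, the lists and the motifs were chosen with earlier results of these data known.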

Additional observations from a re-analysis of the deposited data

How the results depend on the processing

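The alternatives were DESeq2 size factors, count totals, TMM over protein-coding genes, no filter on low counts, a prior count of 2, FPKM, and only the genes that overlap no other, with 2 more chosen after seeing the data (without Serpinh1, and only genes with under 5% of windows shared). All 666 single-gene values stayed within their counting interval. They are not separate checks, because the same counts were reused and each scaling shifted all genes of a comparison by about the same amount. The largest such shift was 0.0197 in log2. A count was taken as unchanged within 1.5 times the reported one. A median, which has no interval of its own, was taken as unchanged inside the counting interval of the gene nearest to it. Over 9 results and these 9 alternatives, 75 of 81 values were unchanged by these rules, 6 moved and 0 reversed. The 6 were the TGF-beta1 to vehicle median (0.18 with genes that overlap no other, against 0.10), the TGF-beta1 to Osm median (0.19 with the same genes, against 0.13), and the count 1.2-fold higher with TGF-beta1 than with Osm (4 as reported), which was 8 with DESeq2 size factors, 7 with no filter, 8 with FPKM and 2 with genes that overlap no other. The count 1.2-fold higher with TGF-beta1 than with vehicle ran from 4 to 6, and the counts of lower genes in each comparison, and of higher genes with Osm, stayed at 0 in these 9 alternatives. In the alternatives that only left out genes, a count of 0 could not change. Part of the 75 unchanged values was thus fixed in advance. In the TGF-beta1 to Osm comparison, Sec13 (1.1997-fold), Sec61b (1.199-fold), Sec23b (1.195-fold) and Tmed9 (1.190-fold) lay just under the 1.2-fold limit. DESeq2 size factors raised the log2 ratios of that comparison by 0.0197, and no filter raised them by 0.0118. Beyond these values and the smaller number of genes that overlap no other, the cause was not tested. No paired analysis was possible because each condition had 1 library, and no library could be left out. Counts of 901 or more per gene set the width of the intervals, and no error between cultures could be estimated.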

Other observations

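Sec24a and Sar1b lie head to head on chromosome 11 in the deposited mm39 coordinates, Sec24a on the minus strand ending at 51654461 and Sar1b on the plus strand starting at 51654514, with 52 bases between them. Their ratios of TGF-beta1 to vehicle lay on opposite sides of 1, at 1.09-fold lower (1.02 to 1.17) for Sec24a and 1.11-fold higher (1.02 to 1.21) for Sar1b. Among the regulators of ER stress and secretion, Atf6 stood at 109.5 CPM in vehicle, 110.3 in Osm and 169 in TGF-beta1, 1.55-fold higher (1.46 to 1.64). Xbp1, given outside the naming rule because it was named with Atf6 for TGACGTGG, stood at 192, 199 and 183 CPM. It was 1.05-fold lower (1.0004 to 1.10) with TGF-beta1. Ddit3, which encodes Chop, stood at 56.8, 52.3 and 69.4 CPM, 1.22-fold higher (1.12 to 1.33). Mbtps1, a protease that cleaves Atf6, stood at 218, 218 and 183 CPM, 1.196-fold lower (1.14 to 1.25), and Eif2ak3, the kinase PERK, at 81.9, 76.8 and 68.9 CPM, 1.19-fold lower (1.10 to 1.28).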
